A study of Mus musculus with 8 samples.

Results

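The elastic fibre and microfibril genes described here are 10 genes taken by their symbols from a table of 54532 genes measured by RNA sequencing of mouse heart tissue. They are Eln (elastin), the fibrillins Fbn1 and Fbn2, the microfibril-associated Mfap2, Mfap4 and Mfap5, and the fibulins Fbln1, Fbln2, Fbln5 and Efemp2. Of the 10 members, 9 were among the 13928 genes that passed a filter on low values; Fbn2 did not pass it and was not tested.

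Elastic fibres let vessel walls, valves and the matrix of the heart stretch and recoil. They consist of a core of cross-linked elastin laid down on microfibrils, bundles whose backbone is fibrillin and which also hold the latent form of TGF-beta in the matrix. Fibulins and microfibril-associated proteins link tropoelastin, the soluble form of elastin, to the fibrillin bundles and to cells.

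The 4 groups of 2 libraries each were Piezo1-Cko hearts after TAC (Cko TAC), wild-type hearts after TAC (WT TAC), Piezo1-Cko hearts after sham surgery (Cko sham) and wild-type hearts after sham surgery (WT sham), all of strain C57BL/6. TAC is transverse aortic constriction, in which a narrowed aorta raises the pressure that the heart pumps against, and Piezo1 encodes an ion channel opened by mechanical force. The labels give neither the cells and exons that the Cko allele affects, nor the ages of the mice, the time after surgery or the part of the heart taken. Nothing in them ties the 2 libraries of a group to separate animals, so the p-values below measure the spread between these libraries, which may be technical. Levels are FPKM (fragments per kilobase of gene, on a library size that the authors scaled). Every fold change here is a difference of log2(FPKM + 0.5), so that for low genes it is smaller than the ratio of their FPKM.

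Depth was similar in all libraries, at 15574769 to 17313084 recovered reads, with 17.6% to 24.4% of them from mitochondrial genes. The 8 cardiomyocyte markers summed to 12593 to 16092 FPKM in the TAC libraries and to 20621 to 23530 FPKM in the sham libraries, as in heart muscle. Piezo1 was at 5.24 and 3.89 FPKM in Cko TAC, 5.38 and 5.83 FPKM in WT TAC, 3.83 and 3.23 FPKM in Cko sham, and 2.35 and 3.09 FPKM in WT sham. Both Cko libraries were thus under both WT libraries after TAC and above them after sham surgery. A gene total does not check the genotype labels where the deleted exons are not given. A pair of libraries stood apart. WT TAC replicate 1 had 624 CPM (reads scaled to a common library total) of immunoglobulin genes, against 19.0 to 51.8 CPM in the other 7. WT sham replicate 1 had 480 FPKM summed over the atrial markers, against 2.88 to 4.13 FPKM in the other 7, with Myl7 at 394 FPKM and Sln at 43.6 FPKM; Sln was listed at 0 in the other 7 and Bmp10 in all 8.

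WT TAC replicate 1 bears directly on the members, because 8 of the 10 were highest there. The exceptions were Fbln1, highest in WT sham replicate 1, and Efemp2, highest in Cko TAC replicate 1. Of all tested genes, 17.8% were highest in WT TAC replicate 1. The 10 members summed to 196 and 201 FPKM in Cko TAC, 426 and 164 FPKM in WT TAC, 90.0 and 103 FPKM in Cko sham, and 132 and 118 FPKM in WT sham. The 4 TAC libraries were thus above the 4 sham libraries in the sum, and WT TAC replicate 1 was far above WT TAC replicate 2.

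The members rose in TAC hearts as a subset: Fbn1, Fbln2 and Mfap5 rose in each genotype, and Eln and Efemp2 rose when the genotypes were averaged. Fbln1, Fbln5, Mfap2 and Mfap4 passed in none of these comparisons, and no member passed between genotypes. Among tested genes, adjusted p-values under 0.05 went with a rise for 0.948% and a fall for 0.546% in Cko TAC against Cko sham, where 3 of the 9 tested members rose and 0 fell. In WT TAC against WT sham the shares were 5.57% higher and 7.65% lower, and again 3 of 9 members rose and 0 fell. Averaged over genotypes, 11.9% of genes were higher and 13.5% lower, and 5 of 9 members rose and 0 fell. The share of higher genes among those called in this average was 46.8%, and it was 79.1% when libraries were scaled to total reads, a scaling that put the median log2 fold change of all genes at 0.19. The median log2 fold change of the 9 tested members was 0.95 in Cko TAC against Cko sham, 0.83 in WT TAC against WT sham and 0.96 in the average, against medians of all tested genes of -0.00, 0.01 and 0.01 in the same order. The Cko calls of Fbn1, Fbln2 and Mfap5 were all lost without Cko TAC replicate 1, without either Cko sham library and without either WT sham library (adjusted p = 0.0574 to 0.293), and without Cko TAC replicate 2 Fbn1 kept its call (adjusted p = 0.0336) while Fbln2 and Mfap5 did not. With no filter on low values these 3 Cko calls were lost, and in WT Fbn1 alone kept its call; with a pseudocount of 1 FPKM the Cko call of Fbln2 was lost (adjusted p = 0.0503). In heart tissue, more cells that express these genes and more RNA per cell cannot be told apart.

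**Figure D1:**
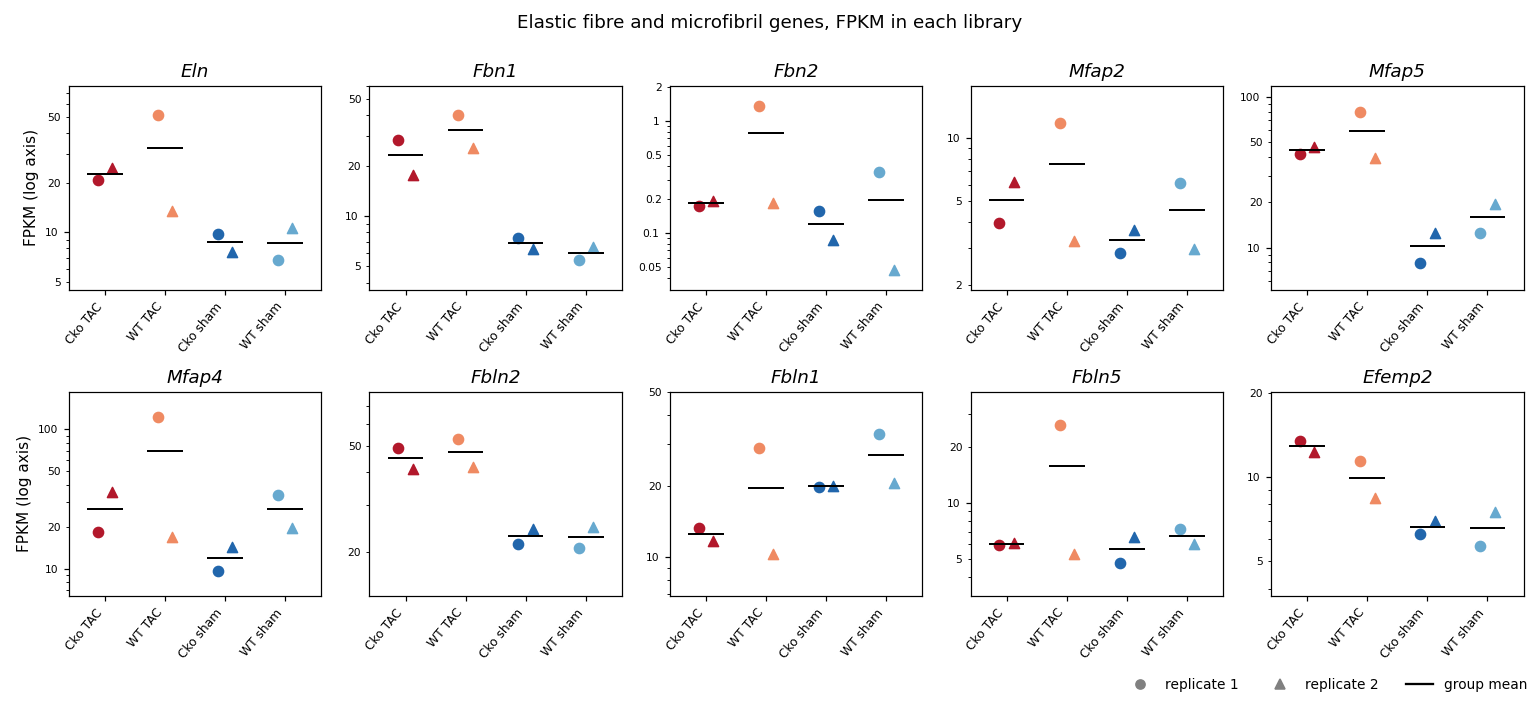
FPKM of each of the 10 members (log axes, 1 panel a gene) in Cko TAC, WT TAC, Cko sham and WT sham hearts; circles are replicate 1, triangles replicate 2 and black lines the mean of the 2. Eln, Fbn1, Mfap5, Fbln2 and Efemp2 had all 4 TAC libraries above all 4 sham libraries, and WT TAC replicate 1 was the highest point for 8 of the 10 genes.

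Levels of the members spanned a wide range. FPKM are per listed gene length, so a ranking between genes is rough and depends on that length. For Efemp2 the listed length was 2648 bases, against 3788 in the merged exons of GENCODE M21. For Fbn2 the listed length was 10480 bases, against 13215. In Cko TAC hearts the order of the means was Fbln2 at 44.9 ± 5.76 FPKM (SD, n = 2, as in the values that follow), Mfap5 at 44.2 ± 3.19, Mfap4 at 27.0 ± 12.1, Fbn1 at 23.1 ± 7.88, Eln at 22.7 ± 2.56, Efemp2 at 12.9 ± 0.784, Fbln1 at 12.5 ± 1.07, Fbln5 at 6.01 ± 0.144, Mfap2 at 5.08 ± 1.61 and Fbn2 at 0.185 ± 0.0123 FPKM. Neighbours overlapped in their libraries in this order within 4 blocks: Fbln2 with Mfap5; Mfap4 with Fbn1 and Eln; Efemp2 with Fbln1; and Fbln5 with Mfap2. In WT sham hearts the order was Fbln1 at 27.0 ± 8.98 FPKM, Mfap4 at 26.6 ± 10.1, Fbln2 at 22.8 ± 2.99, Mfap5 at 15.9 ± 4.89, Eln at 8.66 ± 2.68, Fbln5 at 6.62 ± 0.856, Efemp2 at 6.60 ± 1.33, Fbn1 at 6.02 ± 0.792, Mfap2 at 4.53 ± 2.21 and Fbn2 at 0.198 ± 0.214 FPKM. There the first 3 overlapped with each other. Eln overlapped with Fbln5 and Efemp2 but was above Fbn1 in both libraries, and Fbln5, Efemp2, Fbn1 and Mfap2 overlapped with each other. Fbln1 headed the WT sham means and stood near the low end of the Cko TAC means, whereas Fbn1 stood low in WT sham and in the middle in Cko TAC.

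Eln, the gene of tropoelastin (GRCm38 chromosome 5, 134702593 to 134747323, minus strand), was at 20.9 and 24.5 FPKM in Cko TAC and at 51.3 and 13.4 FPKM in WT TAC. Cko sham libraries had 9.82 and 7.64 FPKM, and WT sham libraries 6.77 and 10.6 FPKM. All TAC libraries were above all sham libraries, but the WT TAC pair differed 3.82-fold between its own libraries. Eln did not pass within either genotype, with a log2 fold change of 1.33 in Cko (SE 0.538, adjusted p = 0.204) and 1.58 in WT (SE 0.538, adjusted p = 0.0885). Averaged over genotypes, its rise was 2.75-fold (adjusted p = 0.0308; log2 fold change 1.46, SE 0.380). Without WT TAC replicate 1 the averaged log2 fold change was 0.98 (adjusted p = 0.0200) and that in WT 0.63 (adjusted p = 0.231). The averaged call was lost with limma-voom on the recovered reads, with no filter, and when either Cko TAC library, either Cko sham library or either WT sham library was left out, at adjusted p-values of 0.0568 to 0.0969. Within Cko it passed when either WT TAC library was left out of the shared estimate of the spread (adjusted p = 0.0415 and 0.0410).

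Fbn1 encodes the main fibrillin of adult tissue and is the gene mutated in Marfan syndrome in humans (chromosome 2, 125300594 to 125507993, minus strand). It was at 28.7 and 17.6 FPKM in Cko TAC and 40.04 and 25.6 FPKM in WT TAC. In sham hearts it was at 7.36 and 6.39 FPKM in Cko and 5.46 and 6.58 FPKM in WT. The sham libraries lay close together and far under every TAC library. Fbn1 rose 3.12-fold in Cko TAC against Cko sham (log2 fold change 1.64, SE 0.278, adjusted p = 0.0451), 5.01-fold in WT TAC against WT sham (2.32, SE 0.278, adjusted p = 0.0121) and 3.95-fold in the average (1.98, SE 0.196, adjusted p = 0.00272). It had the largest averaged fold change among the members, close to that of Mfap5. In WT its call held whichever single library was left out, at adjusted p-values up to 0.0478, and it was lost without both libraries that stood apart (log2 fold change 1.88, adjusted p = 0.1003).

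Fbn2, the fibrillin best known from fetal tissue, was near the detection limit. It was at 0.176 and 0.193 FPKM in Cko TAC, 1.36 and 0.184 FPKM in WT TAC, 0.156 and 0.0873 FPKM in Cko sham, and 0.349 and 0.0471 FPKM in WT sham. Only WT TAC replicate 1 reached the 0.5 FPKM of the filter, with 266 reads against 7 to 52 reads in the other 7 libraries. Fbn2 made up 3.30% of the summed fibrillin FPKM in WT TAC replicate 1, 6.01% in WT sham replicate 1 and 0.609% to 2.07% in the other 6 libraries, so both libraries that stood apart had its highest shares.

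Mfap5 and Mfap2 encode the small microfibril-associated glycoproteins that bind fibrillin, and Mfap5 also carries a site for integrins. Mfap5 (chromosome 6, 122505845 to 122529290, plus strand) was at 41.9 and 46.4 FPKM in Cko TAC and 78.9 and 39.6 FPKM in WT TAC. The sham libraries had 7.91 and 12.5 FPKM in Cko and 12.4 and 19.4 FPKM in WT. The lowest TAC library was far above the highest sham library. The rise of Mfap5 was 4.27-fold in Cko (log2 fold change 2.09, SE 0.360, adjusted p = 0.0453), 3.52-fold in WT (1.82, SE 0.360, adjusted p = 0.0258) and 3.88-fold in the average (1.95, SE 0.255, adjusted p = 0.00468). Without WT TAC replicate 1 its log2 fold change in WT was 1.32 and did not pass (adjusted p = 0.103); the WT call was also lost without either WT sham library or either Cko sham library (adjusted p = 0.0506 to 0.0786).

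Mfap2 was lower than Mfap5 in every library and did not pass. It was at 3.94 and 6.21 FPKM in Cko TAC, 11.8 and 3.23 FPKM in WT TAC, 2.86 and 3.67 FPKM in Cko sham, and 6.10 and 2.97 FPKM in WT sham, on 51 to 266 reads. The groups overlapped in WT, where replicate 1 was the high library under both surgeries, and did not overlap in Cko. Its log2 fold change did not pass, at 0.55 in Cko (SE 0.549, adjusted p = 0.611), 0.50 in WT (SE 0.549, adjusted p = 0.552) and 0.52 in the average (SE 0.388, adjusted p = 0.347).

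Mfap4, a fibrinogen-related protein that binds tropoelastin and fibrillin, differed more between the WT TAC libraries than any other tested member (chromosome 11, 61485431 to 61488900, plus strand). It was at 18.4 and 35.5 FPKM in Cko TAC, 123 and 16.9 FPKM in WT TAC, 9.58 and 14.3 FPKM in Cko sham, and 33.7 and 19.5 FPKM in WT sham. WT TAC replicate 1 had 7.30 times the level of WT TAC replicate 2, and WT TAC replicate 2 was under both WT sham libraries. The log2 fold change did not pass, at 1.09 in Cko (SE 0.823, adjusted p = 0.488), 0.83 in WT (SE 0.823, adjusted p = 0.512) and 0.96 in the average (SE 0.582, adjusted p = 0.256). In WT its sign turned on a single library: it was -0.59 without WT TAC replicate 1. In the average it passed without WT TAC replicate 2 (1.67, adjusted p = 0.0125). Its exons share 89 bases with Mapk7 on the other strand, which was at 2.71 to 4.64 FPKM.

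Of the 4 fibulins, Fbln2 and Efemp2 rose in the averaged comparison, and Fbln1 and Fbln5 did not pass. The difference between fibulins was not tested. Efemp2 encodes the fibulin that brings lysyl oxidase to tropoelastin, Fbln5 encodes the one that tethers tropoelastin to microfibrils and integrins, and Fbln1 and Fbln2 are found in elastic fibres, basement membranes and heart valves. Because Efemp2 rose in TAC hearts while Fbln1 and Fbln5 did not pass, the 250 bases before a transcription start of each are shown (RefSeq, GRCm38.p6, 5′ to 3′ on the gene's strand, the base before the start last). Capitals mark matches on either strand to a GC box (GGGCGG) or a SMAD-binding element (CAGACA), and the windows hold no annotated exon. The 25 bases after the start were found in a transcript for the Fbln1 window, but not for the Efemp2 and Fbln5 windows. The starts of Efemp2 and Fbln5 thus failed that check and are taken as listed. They are chr19:5473696-5473945 on the plus strand for Efemp2, chr15:85205699-85205948 on the plus strand for Fbln1, and chr12:101819120-101819369 on the minus strand for Fbln5.
Efemp2: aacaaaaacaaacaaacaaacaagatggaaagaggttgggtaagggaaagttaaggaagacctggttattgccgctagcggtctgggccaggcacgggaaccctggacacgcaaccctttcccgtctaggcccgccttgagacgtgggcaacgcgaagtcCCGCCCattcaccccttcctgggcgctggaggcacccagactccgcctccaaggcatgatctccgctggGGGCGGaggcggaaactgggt
Fbln1: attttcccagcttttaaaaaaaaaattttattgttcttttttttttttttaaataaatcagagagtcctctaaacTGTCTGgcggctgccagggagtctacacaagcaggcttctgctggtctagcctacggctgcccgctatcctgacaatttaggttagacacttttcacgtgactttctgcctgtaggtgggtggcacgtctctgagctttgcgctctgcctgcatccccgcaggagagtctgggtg
Fbln5: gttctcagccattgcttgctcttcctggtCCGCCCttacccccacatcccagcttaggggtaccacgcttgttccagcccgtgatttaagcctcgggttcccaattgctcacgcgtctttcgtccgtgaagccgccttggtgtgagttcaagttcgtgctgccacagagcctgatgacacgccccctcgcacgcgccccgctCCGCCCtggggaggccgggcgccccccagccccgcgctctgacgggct
The Efemp2 window had GC boxes starting 90 and 21 bases before the start, and the Fbln5 window had them 221 and 48 bases before it. The Fbln1 window had no GC box and 1 SMAD-binding element, 175 bases before the start, and its GC content was 46.4%, against 59.2% for Efemp2, 65.2% for Fbln5 and a median of 52.4% over 32851 promoters. This contrast depends on the start chosen. The window of a second Fbln1 start had a GC box 11 bases before it and 62.4% GC. That of a second Fbln5 start had no GC box, a SMAD-binding element 15 bases before it and 49.6% GC. The windows of the other Efemp2 starts had 5 GC boxes each, at 75.6% and 78.8% GC. All of these reach into an annotated exon and are not printed. The other Efemp2 starts and the second Fbln1 start passed the check of the 25 bases, and the second Fbln5 start did not. Across the 32851 promoters 32.7% held a GC box and 17.1% a SMAD-binding element. AP-1 (TGANTCA, 6.75% of promoters), TEAD (GGAATG, 12.6%) and the TATA box (TATAAA, 12.4%) had no match in these 3 windows. No matches overlap each other in the 3 printed windows. Such a match is a run of letters, and factor binding was not measured. The RefSeq table matched 6 of the 10 members (Efemp2, Fbln1, Fbln2, Fbln5, Fbn1 and Mfap2), with 11 starts in all.

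Fbln2 (chromosome 6, 91212455 to 91272540, plus strand) was the steadiest of the members that rose. It was at 49.0 and 40.8 FPKM in Cko TAC and 52.8 and 41.6 FPKM in WT TAC, against 21.5 and 24.4 FPKM in Cko sham and 20.7 and 24.9 FPKM in WT sham. The TAC libraries of both genotypes fell in the same range, well above the sham range. The rise was 1.93-fold in Cko (log2 fold change 0.95, SE 0.173, adjusted p = 0.0488), 2.04-fold in WT (1.03, SE 0.173, adjusted p = 0.0187) and 1.99-fold in the average (0.99, SE 0.122, adjusted p = 0.00407). In WT the call was lost without WT TAC replicate 1 (adjusted p = 0.0875) and without either WT sham library (adjusted p = 0.0567 and 0.0554).

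Efemp2 (chromosome 19, 5473973 to 5481853, plus strand) was at 13.4 and 12.3 FPKM in Cko TAC and 11.5 and 8.43 FPKM in WT TAC. It was at 6.29 and 6.98 FPKM in Cko sham and 5.66 and 7.53 FPKM in WT sham. No TAC library overlapped the sham libraries, and this was the member for which the Cko TAC libraries, not WT TAC replicate 1, were highest. It missed the threshold in Cko (log2 fold change 0.91, SE 0.188, adjusted p = 0.0587) and in WT (0.56, SE 0.188, adjusted p = 0.0865) and rose 1.66-fold in the average (0.73, SE 0.133, adjusted p = 0.0101). In Cko it passed in 6 of the 17 alternatives run, among them limma-voom (adjusted p = 0.0418) and total-read scaling (adjusted p = 0.0399). With total-read scaling, which was chosen after seeing the data, it also passed in WT (adjusted p = 0.0459). In GENCODE M21 its exons share 173 bases with Mus81 on the other strand, which was at 6.04 to 8.32 FPKM. The Efemp2 coordinates there differ from the deposited ones, so whether these bases were in the counted gene is not known. Whether reads were counted by strand is not given in the sources used here.

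Fbln1 (chromosome 15, 85205949 to 85286535, plus strand) was the member with a fold change under 0. It was at 13.3 and 11.8 FPKM in Cko TAC and 29.0 and 10.3 FPKM in WT TAC, against 19.8 and 20.1 FPKM in Cko sham and 33.4 and 20.7 FPKM in WT sham. Replicate 1 was the high library in WT under both surgeries; in Cko, both TAC libraries were under both sham libraries. The log2 fold change did not pass, at -0.65 in Cko (SE 0.431, adjusted p = 0.425), -0.58 in WT (SE 0.431, adjusted p = 0.374) and -0.62 in the average (SE 0.305, adjusted p = 0.171). Without WT TAC replicate 1 the averaged value was -0.98 and passed (adjusted p = 0.0186).

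Fbln5 (chromosome 12, 101746565 to 101819055, minus strand) was nearly level outside a single library. It was at 5.91 and 6.11 FPKM in Cko TAC, 26.4 and 5.31 FPKM in WT TAC, 4.74 and 6.54 FPKM in Cko sham, and 7.23 and 6.02 FPKM in WT sham. WT TAC replicate 1 was 3.65 times the next highest library, and the other 7 overlapped. The log2 fold change did not pass, at 0.10 in Cko (SE 0.598, adjusted p = 0.941), 0.82 in WT (SE 0.598, adjusted p = 0.370) and 0.46 in the average (SE 0.423, adjusted p = 0.450), with 95% intervals as wide as -1.30 to 1.498 in Cko. Without WT TAC replicate 1 the WT value was -0.29, and without WT TAC replicate 2 the averaged value was 1.01 and passed (adjusted p = 0.00658).

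**Figure D2:**
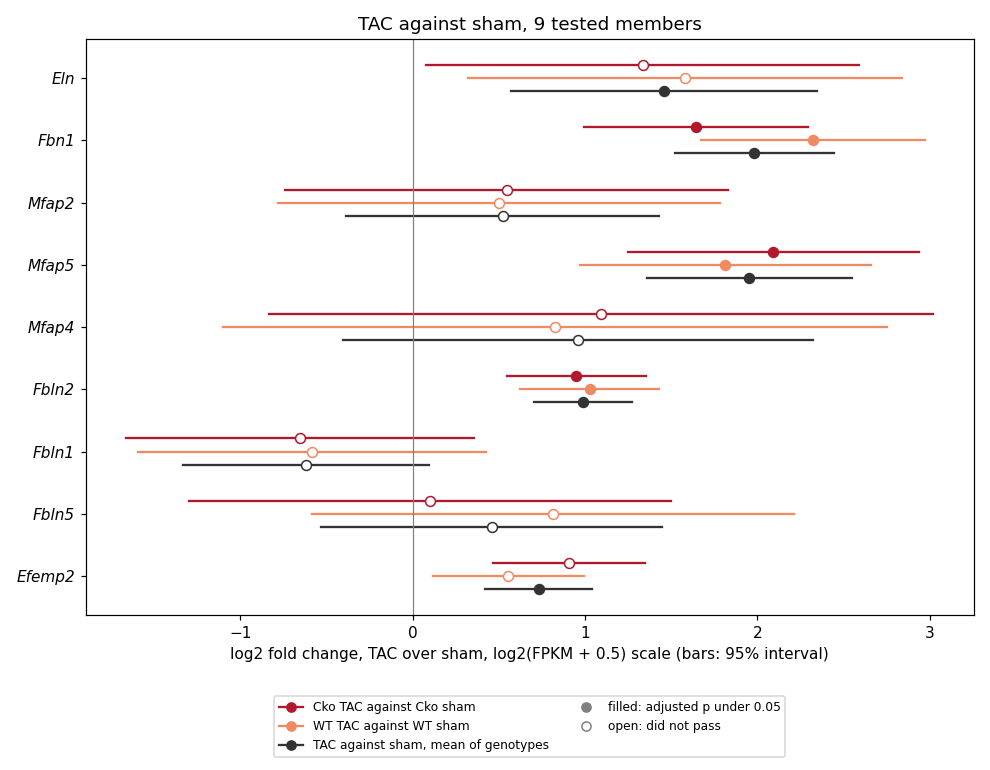
Log2 fold change of TAC over sham (x axis, log2(FPKM + 0.5) scale) for the 9 tested members, in Cko, in WT and averaged over genotypes; bars are 95% intervals from limma and filled points passed at an adjusted p under 0.05. Fbn1, Mfap5 and Fbln2 are filled in all 3 comparisons, Eln and Efemp2 in the average alone, and the intervals of Mfap2, Mfap4, Fbln1 and Fbln5 cross 0.

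Counted without a model, 5 of the 10 members (Eln, Fbn1, Mfap5, Fbln2 and Efemp2) had the 4 TAC libraries above the 4 sham libraries with no overlap. Of all tested genes, 13.1% did. These are the same 5 that passed in the averaged comparison. Both counts use the same libraries and the same split into TAC and sham, so the match is not separate support. Of the other 5 members, Fbn2, Mfap2, Mfap4 and Fbln5 overlapped between TAC and sham, and so did Fbln1.

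Between genotypes, none of the 9 tested members passed under either surgery. Under TAC, 0% of tested genes were called by limma. An unadjusted p under 0.05 was found for 0 of the 9 members and 1269 of the 13928 tested genes. A count of 0 among 9 members does not set them apart from that share. The log2 fold changes of Cko TAC over WT TAC ran from -0.94 for Fbln5 (95% interval -2.34 to 0.46) to 0.37 for Efemp2 (-0.07 to 0.81), with Fbn1 at -0.50 (-1.15 to 0.15), Mfap5 at -0.34 (-1.18 to 0.50) and Eln at -0.22 (-1.47 to 1.04). Fbln2, at -0.07 (-0.47 to 0.34), had the narrowest interval. For Eln, Fbln1, Fbln5, Mfap2, Mfap4 and Mfap5 the Cko TAC libraries lay between the WT TAC libraries. For Efemp2 both Cko TAC libraries were above both WT TAC libraries. Without WT TAC replicate 2, Fbln5 passed at -2.05 (adjusted p = 0.0362), whereas without WT TAC replicate 1 its value was 0.16; of the 9 values, 7 changed sign without that library.

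Under sham, 0.0215% of tested genes were called, and 0 of the 9 members passed. An unadjusted p under 0.05 was found for 0 of the 9 members and 1069 of the 13928 tested genes. Here too, 0 among 9 does not set the members apart. Cko sham over WT sham ran from -1.10 for Mfap4 (95% interval -3.02 to 0.83) to 0.18 for Fbn1 (-0.47 to 0.83). Mfap4 had both Cko sham libraries, 9.58 and 14.3 FPKM, under both WT sham libraries, 33.7 and 19.5 FPKM. Mfap5 was at -0.62 (-1.46 to 0.22), with its Cko sham and WT sham libraries overlapping by a narrow margin.

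The interaction, the Cko response to TAC minus the WT response, passed for 0 of the 9 members, with 0 at an unadjusted p under 0.05. It was called for 0.00718% of tested genes, and 664 of the 13928 had an unadjusted p under 0.05. Against that share, 0 among 9 does not set the members apart. The interaction was -0.68 for Fbn1 (SE 0.393, adjusted p = 0.911), whose response was 3.12-fold in Cko and 5.01-fold in WT. For Fbln5 it was -0.72 (SE 0.846, adjusted p = 0.931). Efemp2 was the member with the highest value, 0.35 (SE 0.266, adjusted p = 0.911). The 95% interval for Fbn1 was -1.60 to 0.24, which holds both an equal response and a 2-fold smaller one in Cko. For Fbln2, with the interval -0.65 to 0.49, a 2-fold difference between the responses lay outside it.

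Ratios between members in the same library do not depend on its size. Mfap5 over Mfap2 was 10.6 and 7.47 in Cko TAC, 6.68 and 12.3 in WT TAC, against 2.77 and 3.40 in Cko sham, and 2.04 and 6.52 in WT sham. Every TAC library was above every sham library, WT TAC replicate 1 by a narrow margin. Fbln2 over Fbln1 was 3.69 and 3.47 in Cko TAC, 1.82 and 4.04 in WT TAC, against 1.09 and 1.22 in Cko sham, and 0.621 and 1.21 in WT sham. The groups did not overlap here either, so that Fbln2 exceeded Fbln1 more in each TAC library than in any sham library. Fbn1 over Fbln5 was 4.86 and 2.87 in Cko TAC and 1.52 and 4.81 in WT TAC, against 1.55 and 0.977 in Cko sham and 0.755 and 1.09 in WT sham. WT TAC replicate 1 fell just under Cko sham replicate 1 in that ratio. Fbn1 over Eln overlapped between surgeries, at 1.38 and 0.718 in Cko TAC, 0.781 and 1.91 in WT TAC, against 0.750 and 0.837 in Cko sham, and 0.807 and 0.623 in WT sham. Fbln2 over Fbln5 also overlapped, at 2.00 in WT TAC replicate 1 and 2.86 to 4.54 in sham libraries. Mfap4 over Mfap5 overlapped too, at 1.56 in WT TAC replicate 1 and 1.01 in WT sham replicate 2. Mfap5 over Mfap2 and Fbln2 over Fbln1 each set a member that passed over a member that did not. Their separation thus partly repeats those calls. The share of all gene pairs that separate in this way was not counted, and these ratios were not tested.

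**Figure D3:**
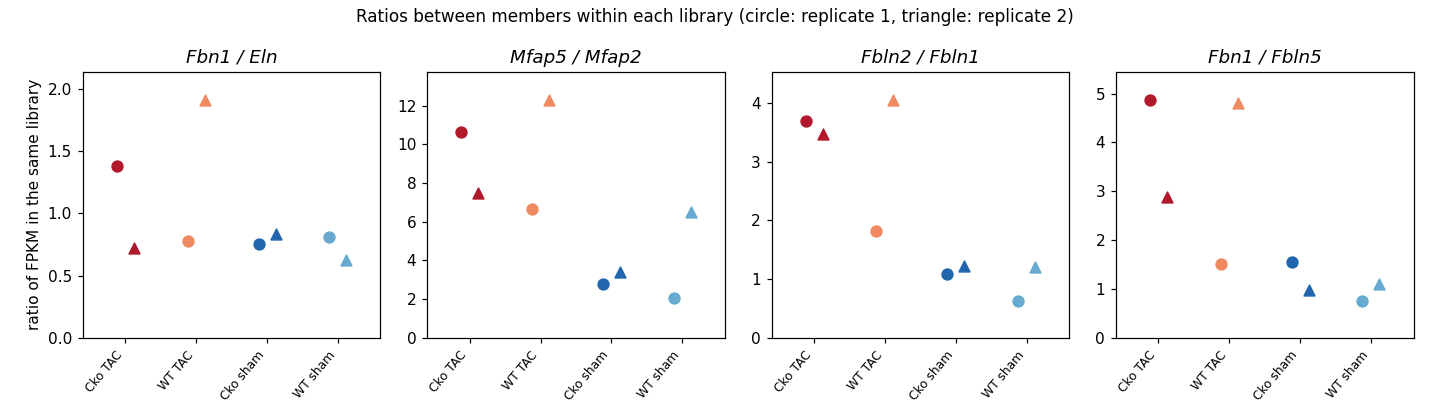
Ratios of FPKM between pairs of members within each library (y axes from 0) in Cko TAC, WT TAC, Cko sham and WT sham; circles are replicate 1 and triangles replicate 2. Mfap5 over Mfap2 and Fbln2 over Fbln1 were higher in all 4 TAC libraries than in all 4 sham libraries, while Fbn1 over Eln and Fbn1 over Fbln5 overlapped.

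Share of the summed member FPKM gives the make-up of the set in each library. Fbln1 was 6.79% and 5.83% of the sum in Cko TAC and 6.81% and 6.26% in WT TAC, against 22.0% and 19.6% in Cko sham and 25.3% and 17.5% in WT sham. This was so in WT TAC replicate 1 as well, where its own FPKM was high. A share falls when other members rise, so it does not measure a fall of Fbln1 itself. The averaged log2 fold change of Fbln1 was -0.62 and did not pass in limma (adjusted p = 0.171). Mfap5 was 21.4% and 23.0% in Cko TAC and 18.5% and 24.1% in WT TAC, against 8.79% and 12.2% in Cko sham and 9.45% and 16.4% in WT sham. Mfap4 took 28.9% of the sum in WT TAC replicate 1 and 25.6% in WT sham replicate 1, and 9.39% to 17.6% in the other 6 libraries.

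Genes that act with elastic fibres were read from lists of cross-linking enzymes, proteases, inhibitors, receptors, TGF-beta genes and other components. Averaged over genotypes, 5 of 7 tested cross-linking enzymes rose and 0 fell (median log2 fold change 1.24), where 11.9% of all tested genes were higher and 13.5% lower. Of the 7, 5 were highest in WT TAC replicate 1, and their sum was 258 FPKM there and 68.2 to 177 FPKM in the other 7 libraries. Loxl2, a lysyl oxidase-like enzyme, was at 20.7 and 22.5 FPKM in Cko TAC and 15.9 and 19.8 FPKM in WT TAC, against 3.35 and 5.08 FPKM in Cko sham and 5.09 and 4.88 FPKM in WT sham, a rise of 3.98-fold (log2 fold change 1.99, adjusted p = 0.00148). Lox, the enzyme that Efemp2 brings to tropoelastin, rose 7.20-fold (2.85, adjusted p = 0.0101), Loxl1 2.55-fold (1.35, adjusted p = 0.0126), and the transglutaminase gene Tgm2 1.65-fold (0.73, adjusted p = 0.00683). Loxl4 was the fifth. Within genotypes 1 of the 7 rose in Cko (Loxl2) and 4 in WT.

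Of 18 other components of elastic fibres, 14 were tested; 3 rose and 2 fell in the average (median log2 fold change 0.27), counts near the shares of all tested genes, 11.9% higher and 13.5% lower. In WT 2 rose and 1 fell, and in Cko 0 passed, where 0.948% of all tested genes were higher and 0.546% lower. Emilin1, found where elastin meets microfibrils, rose 2.55-fold (log2 fold change 1.35, adjusted p = 0.00531), and Hspg2 rose 1.41-fold (0.49, adjusted p = 0.0141). Ltbp2, a latent TGF-beta binding protein of microfibrils, rose 5.42-fold (2.44, adjusted p = 0.0499), with 45.0 FPKM in WT TAC replicate 1 and at most 7.80 FPKM elsewhere. Efemp1, a fibulin close to Efemp2, fell by 1.09 on the log2 scale (adjusted p = 0.0476), with 1.97 and 1.02 FPKM in Cko TAC and 1.16 and 2.70 FPKM in WT TAC, against 6.70 and 3.34 FPKM in Cko sham and 4.77 and 2.35 FPKM in WT sham. Mmrn1, a multimerin, fell by 0.83 (adjusted p = 0.00540).

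Among 6 tested proteases that cleave elastin or microfibrils, 2 rose and 0 fell in the average (median log2 fold change 0.88); the all-gene shares of 11.9% higher and 13.5% lower apply to each list here. They were Ctss, a cathepsin with elastase activity (log2 fold change 1.39, adjusted p = 0.00726), and Mmp14, a membrane metalloproteinase (1.15, adjusted p = 0.0152); Elane, the neutrophil elastase gene, was listed at 0 in all libraries. Of 5 tested inhibitors, Timp1 (3.90, adjusted p = 0.00148) and Timp3 (0.75) rose. Of 9 tested receptors, 4 rose and 1 fell (Itgb6, -0.79), with Itga5, a fibronectin-binding integrin subunit, at 0.84 (adjusted p = 0.00540). Of 6 TGF-beta genes, 4 rose and 0 fell, with Tgfb2 at 1.10 (adjusted p = 0.0279) and the receptor gene Tgfbr2 at 0.70. Highest in WT TAC replicate 1 were 5 of the 6 TGF-beta genes (sum 76.5 FPKM there, 38.4 to 55.3 FPKM in the other 7), 6 of 10 listed receptors, 4 of 8 proteases and 3 of 6 inhibitors. The genes of these lists were not refitted with libraries left out. Within Cko, the proteases and TGF-beta genes had 0 calls and the inhibitors and receptors 1 each (Timp1 and Itga5).

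Markers of other cells were read beside the members. The 6 activated fibroblast markers summed to 114 and 115 FPKM in Cko TAC, 477 and 97.0 FPKM in WT TAC, 24.0 and 31.0 FPKM in Cko sham, and 78.3 and 29.5 FPKM in WT sham. Each of the 6 was highest in WT TAC replicate 1, as were 8 of the 10 members. Averaged over genotypes, 4 of the 6 rose (Postn, Meox1, Cthrc1 and Cilp) and 0 fell. The all-gene shares there were 11.9% higher and 13.5% lower. In Cko 0 of the 6 passed, where 0.948% of all tested genes were higher and 0.546% lower. Comp, a cartilage and tendon matrix gene in that list, was at 75.4 FPKM in WT TAC replicate 1 and 26.1 FPKM in WT sham replicate 1, and at most 2.93 FPKM in the other 6 libraries. The 8 resident fibroblast markers summed to 596 to 701 FPKM in TAC libraries and to 819 to 1257 FPKM in sham libraries, a fall in the sum in which Gsn was the most abundant gene, at 255 to 370 FPKM in TAC libraries and 585 to 822 FPKM in sham libraries. Gene by gene in the averaged comparison, Col15a1 (log2 fold change 1.56, adjusted p = 0.00185) and Lum (0.80, adjusted p = 0.0399) rose, Gsn fell by 1.11 (adjusted p = 0.00615), and the median of the 8 was 0.25. The 7 smooth muscle markers summed to 125 to 217 FPKM in TAC libraries and to 102 to 366 FPKM in sham libraries, and 0 of them was highest in WT TAC replicate 1. The 6 macrophage markers summed to 281 to 403 FPKM in TAC and 197 to 227 FPKM in sham libraries. All 6 of them rose in the averaged comparison, and 2 rose in Cko. The 7 B and plasma cell markers summed to 306 FPKM in WT TAC replicate 1 and 11.7 to 33.8 FPKM in the other 7. The 6 cartilage and valve markers summed to 7.33 FPKM in WT TAC replicate 1 and 1.15 to 3.39 FPKM in the other 7. The part of these cells in the members' values was not tested.

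**Figure D4:**
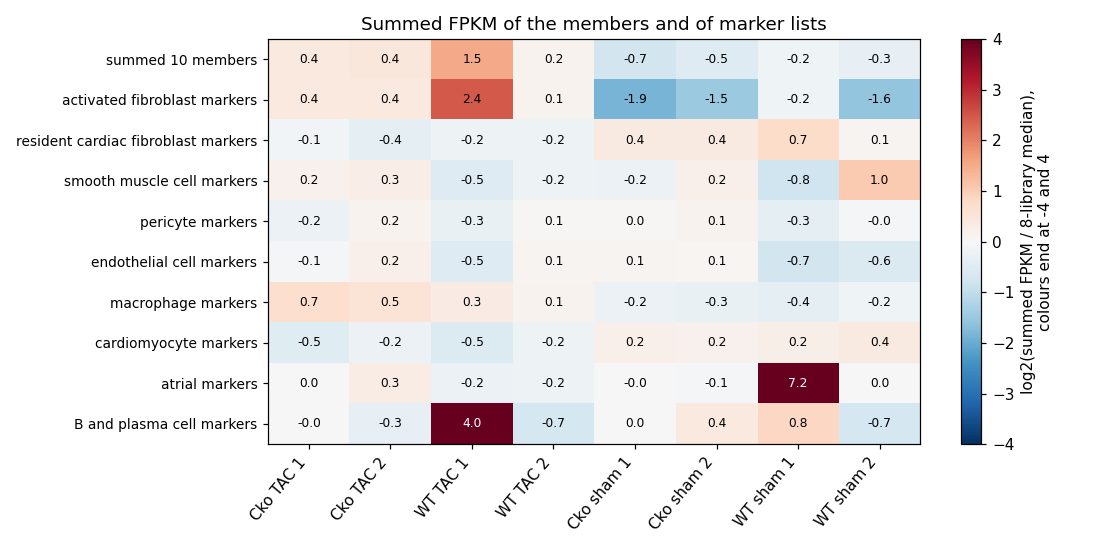
Summed FPKM of the 10 members and of 9 marker lists (rows) in each library (columns), as log2 of the ratio to the 8-library median of that row, with deeper colours farther from it. WT TAC replicate 1 had the highest sums of the members (1.5), the activated fibroblast markers (2.4) and the B and plasma cell markers (4.0), and WT sham replicate 1 the highest sum of atrial markers (7.2).

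For each member, the genes with the most similar profile were taken by the root mean square difference of log2(FPKM + 0.5), each gene centred on its own mean, over 8 libraries and 12048 named genes. The value for Fbn1 was 0.16 with Emp1 and 0.23 with Col3a1, a fibrillar collagen gene. Mfap5 was nearest to Fstl1 (0.18), Fbln2 to Oaf (0.08), and Efemp2 to C1qb (0.09) and Ctsz (0.10), the first of them a complement gene of macrophages and the second a cathepsin gene. Fbln5 was nearest to Mmp2 (0.20) and Itga11 (0.21), and Mfap2 to Mmp23 (0.12). Eln was nearest to Fam83d (0.27) and Col16a1 (0.29), Fbln1 to Fam19a5 (0.19), and Mfap4, the least matched, to Pamr1 (0.39). Among the members themselves, the closest pair was Fbln2 and Efemp2 (0.21), then Fbln5 and Mfap2 (0.34) and Fbn1 and Mfap5 (0.43). Fbln1 was farthest from the rest, with Mfap2 its nearest member at 0.62, more than its own spread around its mean of 0.55. The 8 libraries are shared by all these genes, so WT TAC replicate 1 enters each of the values.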

How the data were processed

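RNA of 8 mouse heart libraries (Trizol, NEBNext Ultra kit, per the labels' protocols) was sequenced. The builds mm8 and mm10 and the tools featureCounts 1.5.0-p3, Bowtie 0.12.2 and CASAVA 1.8 stand in the submitters' processing notes; the strand setting is not given in the sources used here. The authors deposited 1 table whose values are FPKM. Multiplied by gene length, all values of a library were whole multiples of a single number (100% within 0.01), which gave whole reads. The deposited FPKM rest on library sizes 0.886 to 1.10 times those totals, within 0.498% of median-of-ratios factors. No pair of libraries in a group agreed within counting noise (chi-square per degree of freedom 11.9 to 28.8).

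With limma 3.58.1 in R 4.3.3, 1 mean per group was fitted to log2(FPKM + 0.5) of all 8 libraries (4 residual degrees of freedom), with trend and robust moderation. Genes needed at least 0.5 FPKM and 10 reads in at least 2 libraries. TAC was set against sham in Cko, in WT and averaged, and Cko against WT under each surgery and in the interaction (6 comparisons); p-values are two-sided and Benjamini-Hochberg adjusted over 13928 genes, with a threshold of 0.05. The steps were tested on simulated data with a fixed spread and no library that stood apart. That simulation therefore cannot show whether the calls hold in these libraries. The alternatives run were limma-voom, median-of-ratios scaling, pseudocounts of 0.1 and 1 FPKM, no filter, the replicate number as a block, 4 libraries alone and libraries left out; total-read scaling was chosen after seeing the data.

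The members and gene lists were chosen with earlier results of these data known. All members are named. Genes named from other lists were to be those that passed in the averaged comparison, at most 4 a list by smallest p. Not all of these are named. Exceptions (Loxl4, Ltbp2, Comp, Elane, Myl7, Sln and Bmp10) were chosen after their values were seen. Similar genes are the 3 nearest by profile, in part. Of the gene identifiers, 54409 were shared with GENCODE M21 (GRCm38), 53499 with the same coordinates. Protein sequences were not used here.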

Additional observations from a re-analysis of the deposited data

How the results depend on the processing

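The number of members that passed depended on single libraries. In WT TAC against WT sham it was 3 and ran from 1 to 6 with each library left out in turn (6 without WT TAC replicate 2, 1 without WT TAC replicate 1 or either WT sham library); it was 1 with no filter, 1 with only the 4 libraries compared and 0 without both libraries that stood apart. In Cko TAC against Cko sham it was 3 and ran from 0 to 5; it was 0 with no filter, 5 with only the 4 libraries compared and 5 without both libraries that stood apart. In the average it was 5 and ran from 4 to 8 (8 without WT TAC replicate 2), in Cko TAC against WT TAC 0 and from 0 to 1 (1 without WT TAC replicate 2), and under sham and in the interaction 0 throughout. Fbn1, Fbln2, Efemp2 and Mfap5 passed in the average under all 16 alternatives run. Where a left-out library leaves 1 in its group, that one is assumed to vary like the other groups. The all-gene counts ranged over the alternatives from 1 to 2369 in WT (1842 as reported), 0 to 513 in Cko (208), 1329 to 4650 in the average (3537), 0 to 18 in Cko TAC against WT TAC (0), 1 to 4 under sham (3) and 1 to 3 in the interaction (1).

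With the replicate number as a block, 3 members passed in WT, 1 in Cko (Fbn1) and 5 in the average, and the genes called were 2187, 236 and 3748. Same-numbered libraries deviated together weakly, with correlations over genes of 0.026 to 0.25, and the labels do not pair them.

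Some signs turned with a library left out; the cause was not tested. In WT the log2 fold change with each library left out ran from -1.31 to 0.14 for Fbln1, -0.29 to 1.92 for Fbln5, -0.36 to 1.36 for Mfap2 and -0.59 to 2.24 for Mfap4; in Cko from -0.11 to 0.31 for Fbln5, and in the average from -0.094 to 1.01 for Fbln5. For Cko TAC over WT TAC it ran from -1.16 to 0.73 for Eln, -1.18 to 0.27 for Fbln1, -0.24 to 0.10 for Fbln2, -2.05 to 0.16 for Fbln5, -1.17 to 0.55 for Mfap2, -2.25 to 0.59 for Mfap4 and -0.83 to 0.15 for Mfap5. For Cko sham over WT sham it ran from -0.27 to 0.33 for Eln, -0.12 to 0.14 for Fbln2, -0.17 to 0.21 for Efemp2 and -0.82 to 0.11 for Mfap2. In the interaction it ran from -1.20 to 0.70 for Eln, -0.80 to 0.66 for Fbln1, -0.25 to 0.090 for Fbln2, -1.82 to 0.39 for Fbln5, -0.82 to 0.91 for Mfap2, -1.15 to 1.68 for Mfap4 and -0.21 to 0.77 for Mfap5. Without both libraries that stood apart, Fbln5 was -0.17 and Mfap4 -0.20 in WT, and Fbln5 -0.033 in the average; Cko TAC over WT TAC was 0.73 for Eln, 0.27 for Fbln1, 0.10 for Fbln2, 0.16 for Fbln5, 0.55 for Mfap2, 0.59 for Mfap4 and 0.15 for Mfap5; Cko sham over WT sham was -0.27 for Eln, -0.12 for Fbln2, -0.17 for Efemp2 and 0.11 for Mfap2; and the interaction was 1.00 for Eln, 0.32 for Fbln1, 0.22 for Fbln2 and 0.27 for Fbln5.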
